A study of Mus musculus with 5 samples.

Results

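Peaks at the proximal ends of the mouse autosomes were described in 3 lists of called peaks from chromatin immunoprecipitation and sequencing (ChIP-seq). A peak is a stretch of the genome where the authors' caller found sequenced fragments piled up. The proximal peaks were those on autosomes 1 to 19 other than 11 whose region began before position 3500000 of genome build mm10. This rule uses position alone. It gave 105 of the 857 peaks (12.3%) for acetylated H3K27 in wild-type cells (WT H3K27ac), 121 of 844 (14.3%) for the same mark in cells lacking Egr1 (KO H3K27ac) and 104 of 847 (12.3%) for EGR1 in wild-type cells (WT EGR1), or 330 of 2548 rows in all.

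The cells were dendritic cells grown from femoral bone marrow of C57BL/6J mice in 10 ng/ml GM-CSF and collected on day 6. All groups, Egr1-deficient and wild-type alike, had then received 100 ng/ml LPS and 20 mM L-(+)-lactic acid for 24 h, so no unstimulated cells and no cells given LPS alone enter any comparison. H3K27ac was precipitated with ab4729 and EGR1 with antibody 15F7. Each group is 1 library. The sources used here do not give the number of mice and cells behind it or the way Egr1 was disrupted. No difference between lists could therefore be tested as an effect of genotype or antibody, and no p-value is given. The lists hold no read counts, so depth is unknown, and the input DNA samples of both genotypes were not analysed here. Of 12 dendritic cell marker genes, Csf2ra had a peak within 2 kb in each list and the other 11 had none. The lists also held no peak within 2 kb of 3 macrophage, 3 neutrophil and 3 lymphocyte markers or of the housekeeping genes Actb, Gapdh and Eef1a1. The labelled cell type could thus not be checked from these peaks.

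Mouse autosomes carry the centromere at one end. The reference assembly leaves the centromere as unknown bases, and its readable sequence starts beyond it, in DNA that borders the pericentromeric satellite repeats and is known for segmental duplications, vomeronasal receptor gene families and pseudogenes. H3K27ac is a histone mark of active promoters and enhancers, while pericentromeric chromatin is the textbook example of constitutive heterochromatin, which other histone marks characterise. EGR1, the product of an immediate early gene, is a zinc finger protein that binds GC-rich sites in promoters. Repeat content was not analysed here, since no genome sequence was used.

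The same 12 autosomes held proximal peaks in every list, and the same 6, namely 1, 5, 7, 8, 14 and 15, held none. Chromosome 9 dominated, with 54 WT H3K27ac, 61 KO H3K27ac and 55 WT EGR1 peaks. Chromosome 16 held 11, 10 and 10 peaks in the same order of lists, which is kept throughout. The counts were 9, 10 and 9 on chromosome 10, 7, 12 and 7 on chromosome 17, the next highest after chromosome 9 in KO H3K27ac, 9 in each list on chromosome 18, and 6, 7 and 5 on chromosome 4. Chromosome 3 held 1, 3 and 1 and chromosome 13 held 2, 3 and 2. Chromosome 6 held 3 in each list, and chromosomes 2, 12 and 19 held 1 in each list. The KO list thus had more peaks than both WT lists on 6 chromosomes (3, 4, 9, 10, 13 and 17), fewer than WT H3K27ac on chromosome 16 alone, and equal numbers on chromosomes 2, 6, 12, 18 and 19.

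**Figure D1:**
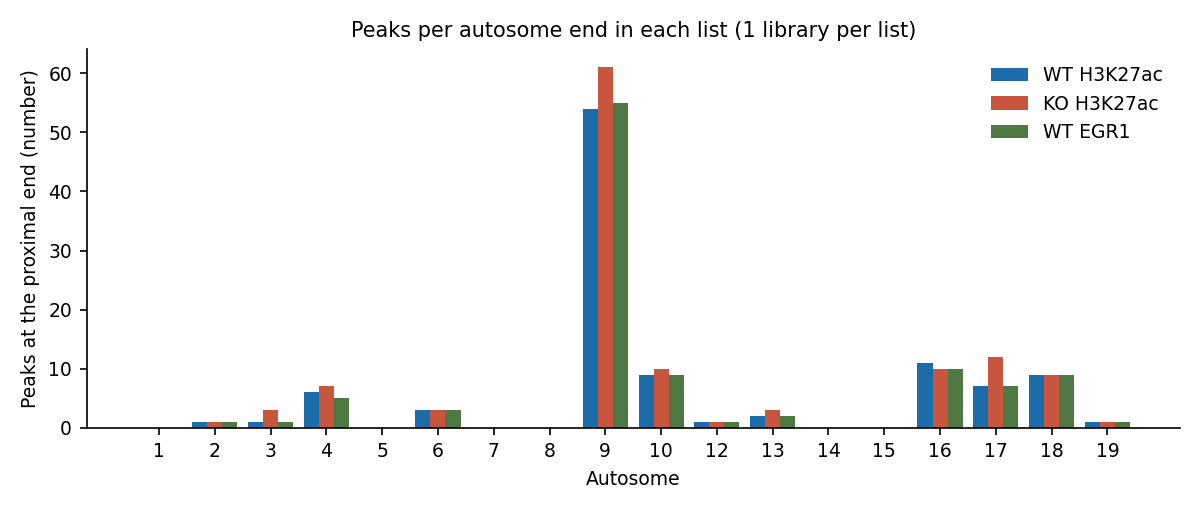
Number of proximal peaks (y axis) on each of the 18 autosomes searched (x axis), with 1 bar per list and 1 library per list. Chromosome 9 stands far above the others with 54, 61 and 55 peaks, and chromosome 17 shows 12 peaks in KO H3K27ac beside 7 in each WT list.

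Most of the peaks that lay close to the first readable bases were on chromosome 9. Within 40 kb of position 3000000 began 64 of the 105 WT H3K27ac peaks (61%), 77 of the 121 KO H3K27ac peaks (63.6%) and 65 of the 104 WT EGR1 peaks (62.5%). The chromosome 9 cluster supplied 53, 60 and 54 of these. Other ends began further out. In WT H3K27ac the first peaks of chromosomes 10, 12, 13, 16 and 19 began at 3109439, 3109836, 3372980, 3113436 and 3318268. The first peak of all began at 3000025 on chromosome 9 in both H3K27ac lists and at 3000021 in WT EGR1. The stretch just inside the limit held no peak. The last one before it lay on chromosome 13, at 3373512 to 3373785 in WT H3K27ac (score 3.03), at 3374083 to 3374371 in KO H3K27ac (2.01) and at 3373504 to 3373784 in WT EGR1 (2.96), which is 126488, 125917 and 126496 bp before the limit. The first beyond it lay on chromosome 8, 56141 bp past the limit at 3556141 to 3556462 in WT H3K27ac, with scores of 2.65, 2.46 and 2.56 in the 3 lists. It lies between Pnpla6, which encodes a phospholipase of the neuropathy target esterase family, and C330021F23Rik. On the member chromosomes the next WT H3K27ac peak stood further out. It began between 4254809, on chromosome 3, and 15253461, on chromosome 12. On chromosome 9 it began at 4260265, on chromosome 13 at 6404538 and on chromosome 18 at 7033605.

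**Figure D2:**
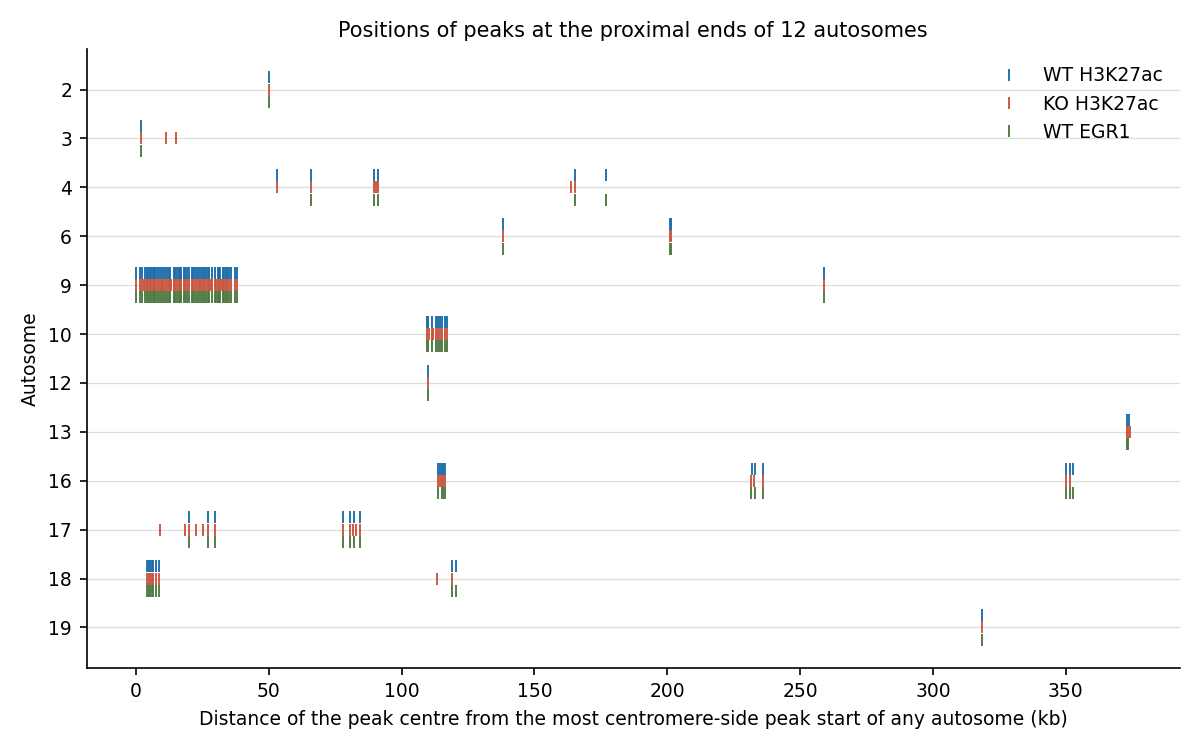
Position of each proximal peak centre, as distance in kb from the most centromere-side peak start of any autosome (x axis), on the 12 autosomes that hold one (y axis), with 1 row of ticks per list. Chromosome 9 begins with a dense run of 53, 60 and 54 peaks, while chromosomes 2, 12 and 19 carry 1 tick in each list.

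The proximal peaks formed few loci. Joining peaks of all lists that lay at most 10 kb apart gave 22 loci, of which 20 held a peak in every list. The other 2 were both on chromosome 4. The locus at 3052923 to 3053297, beside Gm27878, was in both H3K27ac lists (scores 1.69 in WT and 1.96 in KO) and not in WT EGR1. The locus between Vmn1r2 and Vmn1r3, at 3176790 to 3177078, was in WT H3K27ac (2.53) and WT EGR1 (2.48) and not in KO H3K27ac. Loci with at least 5 peaks held 74 WT H3K27ac peaks in 4 loci (70.5%), 94 KO H3K27ac peaks in 6 (77.7%) and 70 WT EGR1 peaks in 3 (67.3%).

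Spacing was bounded by the rule, since every proximal peak begins between 3000000 and 3500000, so it was not compared with the rest of the autosomes. The median distance between neighbouring peak centres was 778 bp in WT H3K27ac, 695 bp in KO H3K27ac and 749 bp in WT EGR1. Without chromosome 9 the proximal medians rose to 1209.5, 1151 and 1268 bp. These are descriptions of 1 library each, and the distances within a locus share their source.

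The cluster on chromosome 9 spanned 3000025 to 3038283 in WT H3K27ac and 3000025 to 3038322 in KO H3K27ac. Its 53 WT peaks lay a median of 630.5 bp apart from centre to centre, with distances from 390 to 1408 bp. The 60 KO peaks lay a median of 561 bp apart (379 to 1386) and the 54 EGR1 peaks 627 bp (394 to 1408). Peak regions covered 43.9%, 45.6% and 44.7% of the interval from 3000021 to 3038322. The median peak length there was 323 bp in WT H3K27ac, 291.5 bp in KO H3K27ac and 324 bp in WT EGR1, so the KO list held more and shorter peaks over much the same covered share. Next along chromosome 9 came a single peak at 3258715 to 3259024, between the olfactory receptor pseudogene Olfr369-ps1 and Gm27679, with scores of 4.41, 4.68 and 4.19.

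Scores within the cluster had the same shape in each list. A peak shape score is the authors' own value and rises as the deposited p-value falls. The highest value lay at the far edge of the cluster, at 3037906 to 3038283, with 14.68, 14.30 and 14.75. The near edge, at 3000025 to 3000500, had 13.90, 12.48 and 13.29. Over 4 stretches of 9.6 kb, median scores in WT H3K27ac ran 8.86, 10.00, 7.60 and 5.42 away from the centromere. In KO H3K27ac they ran 9.89, 10.83, 7.39 and 6.25, and in WT EGR1 8.50, 9.66, 7.19 and 5.19. The last stretch was thus the lowest by its median in every list, though it held the highest single peak.

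**Figure D3:**
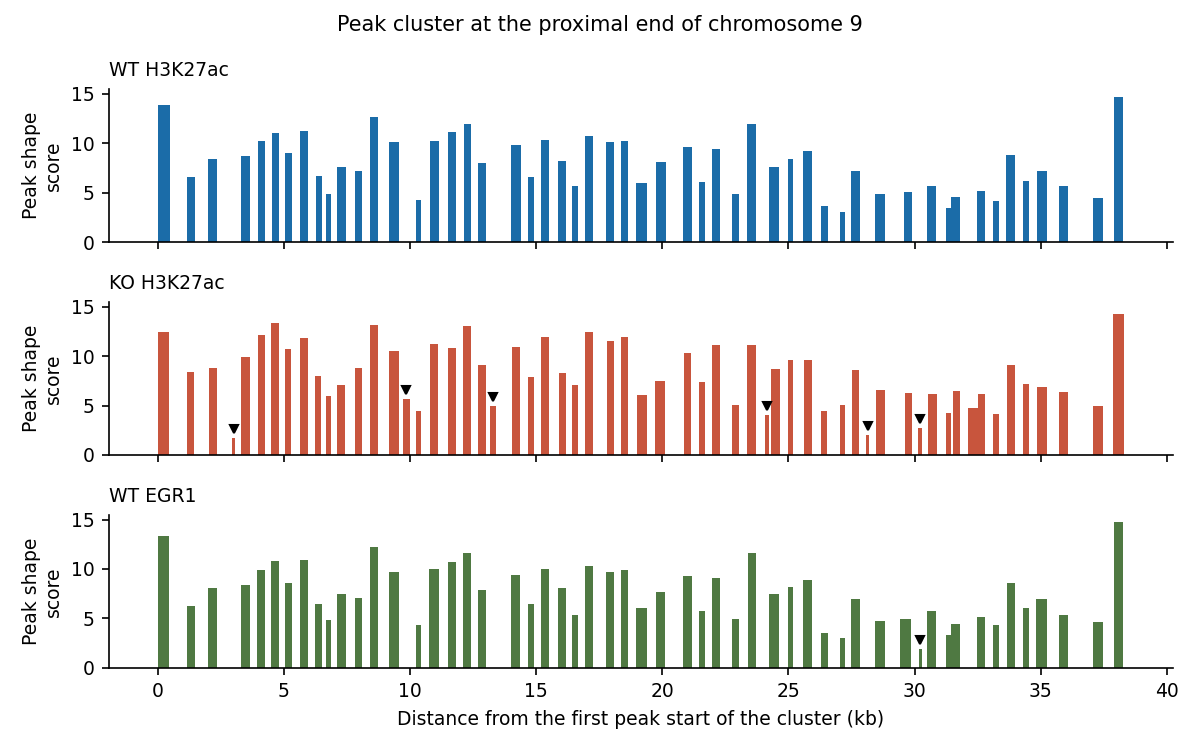
Peaks of the chromosome 9 cluster in each list: x axis, distance from the first peak start in kb, bar width, peak length, y axis, peak shape score. Triangles mark the 6 KO H3K27ac peaks and the 1 WT EGR1 peak without an overlapping WT H3K27ac peak, which lie between taller bars.

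The gene annotation at this cluster rested on the authors alone. They place all 53, 60 and 54 peaks inside the predicted gene Gm26870, which the RefSeq table of the same assembly (GRCm38.p6) does not list by that symbol. The nearest RefSeq gene is Mir101c, at 3038669 to 3038743, which encodes a microRNA of the miR-101 family. Between it and the last peak of the cluster lie 385, 346 and 386 bases. Its mature sequence is shown because it is the annotated gene beside the peak with the highest score of the cluster. It comes from RefSeq (GRCm38.p6, chr9:3038680-3038698, minus strand), 5′ to 3′, with bases 2 to 8, the seed, in capitals.
mmu-miR-101c: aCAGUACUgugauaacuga
No other of the 1738 mature miRNAs in the table had the same bases 2 to 8. Such a count leaves out sequences that match when shifted along, so it does not set this miRNA apart from its family. The peak itself does not reach the miRNA gene in any list.

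On chromosome 18 a locus of 7 peaks in each list had distances of 500 to 1200 bp in WT H3K27ac, 484 to 1219 bp in KO H3K27ac and 506 to 1199 bp in WT EGR1. Its first 5 peaks, picked out after their positions were seen because they are evenly spaced, lay between 3004184 and 3006519 in WT H3K27ac and had centres 500 to 534 bp apart (SD 13.9 bp over the distances). The distances were 484 to 530 bp in KO H3K27ac and 506 to 528 bp in WT EGR1. Their lengths were short, with medians of 250, 251 and 250 bp. The middle one of the 5, at 3005261 to 3005497, scored 8.65, 8.78 and 8.53. The authors name Vmn1r-ps151, a vomeronasal receptor pseudogene, 21403 bp further along. In the chromosome 10 cluster (3109439 to 3117159) the distances ran from 550 to 1370 bp in WT H3K27ac. Its 9 WT peaks scored 2.64 to 5.20, its 10 KO peaks 1.82 to 5.73 and its 9 EGR1 peaks 2.88 to 5.87. It lies between AC131283.1 and AC131283.2, and its last H3K27ac peaks end 646 bases from the pseudogene Gm3318 by RefSeq coordinates.

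Chromosome 16 held 3 loci. The first, at 3113431 to 3116658, had 5, 5 and 4 peaks and included the highest on the chromosome, at 3116212 to 3116658, with scores of 5.98, 5.37 and 6.07. The second held 3 peaks in each list with scores of 1.70 to 2.89. The third, at 3349899 to 3353064 beside Gm22862, had 3, 2 and 3 peaks. Some of the longest proximal peaks lay here, such as that at 3349901 to 3350359 with lengths of 459, 456 and 458 bp and scores of 4.88, 4.55 and 4.94. On chromosome 4 the highest score was at 3090749 to 3091194, with 10.20, 8.73 and 10.79. In the WT lists no proximal peak outside chromosomes 9 and 12 scored higher, while in KO H3K27ac the chromosome 18 peak at 3005751 to 3006001 did (8.79). Its neighbour at 3089531 to 3089954 scored 9.04, 8.63 and 8.83.

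The remaining ends held 1 to 3 peaks each. The peak at 3109836 to 3110154 on chromosome 12, 22794 bp from Gm9075, scored 35.26, 35.48 and 34.62 and ranked first in every list. No further peak followed on that chromosome before positions 15253461, 9032033 and 10961471. On chromosome 2 the only proximal peak lay at 3050082 to 3050401, 15171 bp from Gm37392, with scores of 8.45, 7.16 and 8.18. The chromosome 19 peak at 3318268 to 3318623 had low scores of 2.23, 2.02 and 2.12. It lay 4677 bp from Cpt1a, which encodes the carnitine palmitoyltransferase that admits long-chain fatty acids to mitochondria. On chromosome 6 a pair of peaks at 3200835 to 3201155 and 3201297 to 3201624 both scored 4.99 in WT H3K27ac. In KO H3K27ac they had 3.77 and 5.79, and in WT EGR1 5.06 and 4.24. On chromosome 13 the higher peak, at 3372980 to 3373278, scored 3.53, 3.43 and 3.14.

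Few of the genes at these ends were reached by a peak. RefSeq places 223 genes between 3000000 and 3500000 on the 18 autosomes, 62 of them protein-coding, 95 pseudogenes and 45 long noncoding RNAs. Of the 223, a proximal peak lay inside 1 in each list, the transcribed pseudogene Pisd-ps2 on chromosome 17. Within 2 kb of a peak were also Mir101c and Gm3318, and no protein-coding gene in any list. The nearest protein-coding gene was Vmn1r238 on chromosome 18, 2002 bases from a WT H3K27ac peak and 2006 from a WT EGR1 peak. In KO H3K27ac it was the gene 9230019H11Rik on chromosome 10, at 2681 bases. Of 105 RefSeq promoter windows at these ends, from 250 bases before to 50 after a start and belonging to 82 genes, 0 overlapped a proximal peak in any list. Among these windows the closest belonged to 9230019H11Rik, 2431 bases from a WT H3K27ac peak, and the next to Cpt1a at 4427 bases. Not every gene at these ends had a window. Vmn1r238, the nearest protein-coding gene in the WT lists, had none, so the count of overlaps leaves it out. Signal below the calling threshold at the other genes would not appear in such lists. The share of genes or promoter windows reached elsewhere was not counted, so these counts do not set the proximal ends apart.

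By RefSeq coordinates the share of proximal peaks that overlapped a gene was 2.86%, 3.31% and 2.88%. On the same autosomes from 3500000 on the shares were 48.6%, 49% and 48.7%. The authors' own gene distances gave the opposite order, with 53.3%, 52.9% and 54.8% of proximal peaks inside a gene against 40.8%, 41.3% and 40.9% elsewhere. All of these proximal peaks lay in Gm26870 or Pisd-ps2. Of the 31 gene names the authors give beside the proximal peaks in WT H3K27ac, 18 matched a symbol of the table. The first-type vomeronasal receptor family, pheromone receptors of the nose, supplied the neighbours of 16, 17 and 15 proximal peaks (15.2%, 14% and 14.4%). In the same order of lists 3, 5 and 3 peaks (0.508%, 0.898% and 0.513%) had such a neighbour elsewhere on these autosomes. The proximal ones lay on chromosomes 4, 6 and 18, with 9 on chromosome 18 in each list. Their named neighbours included the pseudogenes Vmn1r-ps2 and Vmn1r-ps151.

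Pisd-ps2 is a pseudogene of Pisd, the gene of the mitochondrial phosphatidylserine decarboxylase. It held 3, 4 and 3 peaks. Its highest, at 3077755 to 3078084, scored 4.61, 4.0 and 4.52. A peak at 3084195 to 3084544 in WT H3K27ac lay 11 bp beyond its end, with scores of 3.25, 3.08 and 3.12. Pisd itself, on chromosome 5, held 2, 3 and 2 peaks far from the proximal end, with scores of at most 1.97, 2.98 and 2.05. Pisd-ps1, on chromosome 11, which was not searched for proximal peaks, held 4 peaks in each list. Their scores reached 3.33, 3.35 and 3.30. Pisd-ps3 held 0 in each list.

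The 2 H3K27ac lists were then compared by overlap of at least 1 bp, which asks whether the same regions were listed when Egr1 was missing. Nearly all WT proximal peaks were also in the KO list, and the KO list held further peaks of its own. Of the 105 WT H3K27ac peaks, 101 overlapped a KO peak (96.2%, 95% Wilson interval 90.6 to 98.5, counting error over peaks only) and 4 did not. Over the whole WT list 13.2% of peaks had no KO partner. Elsewhere on the same autosomes 500 of 590 overlapped (84.7%, 81.6 to 87.4). In the other direction 102 of 121 KO peaks overlapped a WT H3K27ac peak (84.3%, 76.8 to 89.7) and 19 did not, where 11.7% of the whole KO list had no WT partner. Elsewhere on the same autosomes 500 of 557 did (89.8%, 87.0 to 92.0). The partnered share of KO peaks was thus lower at the proximal ends (84.3%) than over the whole list, which includes them (88.3%), or elsewhere (89.8%). This difference was not tested. Without chromosome 9, 47 of 60 KO peaks (78.3%, 66.4 to 86.9) and 47 of 51 WT peaks (92.2%, 81.5 to 96.9) had a partner in the other genotype.

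Score went with overlap. All 82 WT proximal peaks that scored 3 or more overlapped a KO peak, and 84 of 88 KO peaks at that score overlapped a WT peak. Elsewhere on the same autosomes all 274 WT and all 272 KO peaks of this class had a partner. A score of 3 or more was reached by 78.1%, 72.7% and 77.9% of the proximal peaks of the 3 lists, against 46.4%, 48.8% and 46.7% elsewhere on these autosomes. Without chromosome 9 the proximal shares were 54.9%, 50% and 55.1%, so most of that distance lay in 1 cluster. Median proximal scores were 5.17, 5.09 and 5.36, and medians elsewhere 2.79, 2.95 and 2.79. Within the class scoring 2 to under 3, 12 of 14 proximal WT peaks and 10 of 16 proximal KO peaks had a partner in the other genotype. Elsewhere the same class gave 148 of 165 and 153 of 163. Under a score of 2 the proximal counts were 7 of 9 and 8 of 17, and elsewhere 78 of 151 and 75 of 122. The low classes hold few proximal peaks, so their shares are imprecise.

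The 19 KO peaks without a WT partner were spread over 7 chromosomes. Chromosomes 9 and 17 held 6 each, chromosomes 3 and 4 held 2 each, and chromosomes 10, 13 and 18 held 1 each. Their median score was 2.01 (1.67 to 5.67), and for 11 of the 19 the nearest WT peak was less than 1 kb away. The 6 on chromosome 9 lay within the span of the cluster. Having no WT overlap, they fell by construction in gaps between its consecutive WT peaks, gaps of 524 to 1000 bp. The peak at 3013195 to 3013429 (score 4.96) lay in the widest of the 52 WT gaps, with 151 bases to the WT peak before it and 614 to the one after. That at 3009747 to 3010008 (5.67) lay in a gap of 685 bp, and that at 3024088 to 3024234 (4.06) ended 31 bases before a WT peak. The other 3 were short, at 103, 122 and 136 bp. The only other unpartnered KO peak above a score of 3 was on chromosome 4, at 3090026 to 3090284 (score 5.0, 71 bases from a WT peak), between the pair of strong peaks of that chromosome described above.

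On chromosome 17 the unpartnered KO peaks were all low in score, from 1.67 to 2.10. Of these, 4 lay between 3008650 and 3025478, before the pseudogene Gm10232. The locus they belong to, 3008650 to 3030085, held 3, 7 and 3 peaks. The WT peaks there, at 3020044 to 3020303, 3026949 to 3027269 and 3029719 to 3030079, scored 2.19, 2.90 and 3.39. Their KO partners scored 3.05, 2.34 and 3.95. The other 2 lay inside Pisd-ps2, on either side of a WT peak at 3081998 to 3082332 (score 1.70) that had no KO partner. The KO peaks ended or began 243 and 207 bases from WT peaks. On chromosome 3, KO peaks at 3010993 to 3011319 (score 2.34) and 3015059 to 3015355 (1.97) lay 8992 and 13058 bases from the only proximal WT peak, at 3001710 to 3002000, which scored 1.93, with 3.51 in KO H3K27ac and 1.96 in WT EGR1.

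The 4 WT H3K27ac peaks without a KO partner scored 1.70 to 2.53. Besides the one in Pisd-ps2 and the one between Vmn1r2 and Vmn1r3, they were at 3352602 to 3353047 on chromosome 16 (2.09), 704 bp from Gm22862, and at 3120166 to 3120489 on chromosome 18 (1.91), 2002 bp from Vmn1r238. All 4 overlapped a WT EGR1 peak, with EGR1 scores of 1.75, 2.48, 1.77 and 1.90 in the same order.

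EGR1 peaks were next set against both H3K27ac lists, which asks how far the regions listed for the factor are those listed for the mark. The WT EGR1 and WT H3K27ac lists held almost the same regions, at the proximal ends and elsewhere on these autosomes alike. An overlapping WT H3K27ac peak was found for 103 of the 104 EGR1 peaks (99.0%, 94.8 to 99.8), where 2.95% of the whole EGR1 list had no such partner and 96.1% of EGR1 peaks elsewhere had one. The exception, at 3030179 to 3030311 in the chromosome 9 cluster (score 1.92), overlapped a KO H3K27ac peak at 3030170 to 3030305 (2.76). In reverse 103 of 105 WT H3K27ac peaks overlapped an EGR1 peak (98.1%, 93.3 to 99.5), against 4.08% without a partner in the whole list and 95.3% with one elsewhere. The 2 exceptions were the chromosome 4 locus beside Gm27878 and a peak at 3114401 to 3114680 on chromosome 16 (2.36), both also in KO H3K27ac.

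A KO H3K27ac partner was found for 100 of the 104 EGR1 peaks (96.2%, 90.5 to 98.5), where 12.3% of the whole EGR1 list had no KO partner. The 4 others were the partners of the 4 WT H3K27ac peaks that lacked a KO partner. Of the 121 KO peaks, 101 overlapped an EGR1 peak (83.5%, 75.8 to 89.0), against 11.8% without one in the whole KO list. Counted as regions joined by overlap, the 3 lists gave 123 proximal regions. Of these, 98 were in all lists, 18 in KO H3K27ac alone, 4 in the WT lists only, 2 in the H3K27ac lists only and 1 in KO H3K27ac and WT EGR1 only. No region was in WT H3K27ac alone or in WT EGR1 alone.

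Boundaries of the peaks were nearly shared between the WT lists, at the proximal ends as elsewhere. Over the 101 proximal peaks with exactly 1 partner in each direction, centres of WT EGR1 and WT H3K27ac peaks lay a median of 1 bp apart and at most 159 bp. Over 558 peaks elsewhere the median was 2 bp and the maximum 135 bp. For WT and KO H3K27ac the median was 14 bp over 100 peaks, and 6 bp over 496 peaks elsewhere on the same autosomes. On chromosome 9 the WT lists even shared an irregular call, 2 consecutive peaks that have base 3031468 in common. In WT H3K27ac these were 3031249 to 3031468 and 3031468 to 3031830, and in WT EGR1 3031247 to 3031468 and 3031468 to 3031828. In KO H3K27ac the corresponding peaks, 3031247 to 3031452 and 3031539 to 3031829, did not touch.

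Lengths varied more at the proximal ends than elsewhere, around the same median. The median was 323 bp in WT H3K27ac, 309 bp in KO H3K27ac and 324.5 bp in WT EGR1, against 323, 309 and 322 bp elsewhere on these autosomes. The interquartile range was 74, 74 and 72.5 bp at the proximal ends and 16, 15 and 19 bp elsewhere. Peaks under 280 bp made up 20%, 26.4% and 20.2% of the proximal peaks, and 3.73%, 5.75% and 3.59% of those elsewhere. Peaks of 400 bp or more made up 12.4%, 5.79% and 13.5%, against 4.75%, 1.62% and 4.96%. Clustered peaks elsewhere, which were not set apart from single ones, could vary as widely. Those from 19415691 to 19419663 on chromosome 14 included WT H3K27ac lengths of 120 and 432 bp.

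The shorter KO peaks that prevailed across the autosomes were less general at these ends, though this difference was not tested. Of 496 matched regions elsewhere, the KO peak was the shorter in 428 (86.3%), with a median difference, KO minus WT, of -13 bp. Of the 53 matched regions on chromosome 9 it was shorter in 39 (73.6%, median -9 bp). Of the 47 at the other proximal ends it was shorter in 22 and longer in 25, with a median of 2 bp and a range from -108 to 40 bp. The 496 regions elsewhere include peak clusters, which were not set apart. In the cluster from 119595603 to 119603535 on chromosome 13, KO peaks were also longer at some regions and shorter at others. Examples are 278 bp in KO against 218 in WT, and 326 in KO against 418 in WT.

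**Figure D4:**
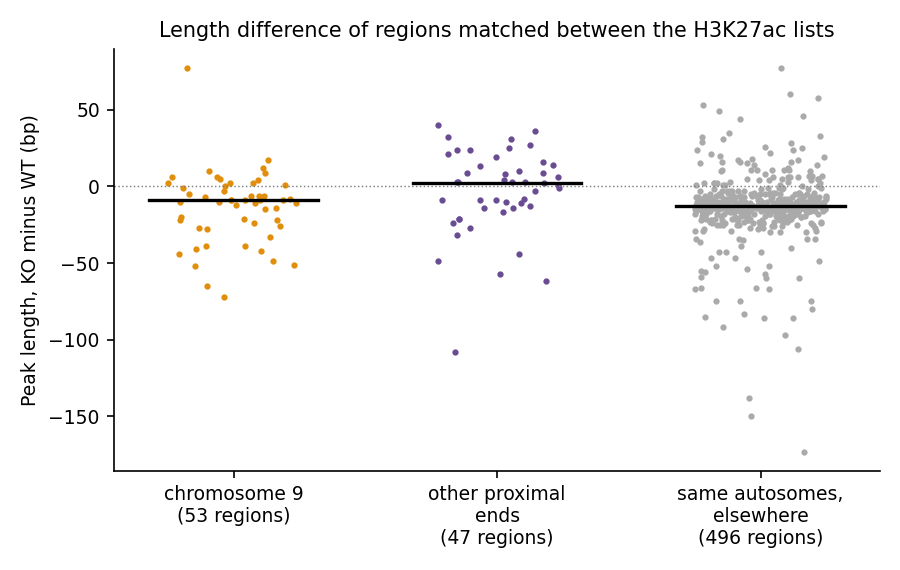
Difference in peak length, KO minus WT H3K27ac, in bp (y axis) for regions matched 1 to 1 between the lists, at the proximal end of chromosome 9, at the other proximal ends and elsewhere on the same autosomes (x axis). Points are regions and bars are medians (-9, 2 and -13 bp), and the bar of the other proximal ends alone lies above 0.

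Because the scale of the score in each library is not given, ranks were used to set the H3K27ac lists side by side. The 596 regions matched 1 to 1 on the 18 autosomes were ranked by score in each list, with 1 the highest. Of the 53 chromosome 9 regions, 44 ranked nearer the top in KO and 8 nearer the top in WT, with 1 tie. Their scores had a median of 8.0 in WT and 8.71 in KO. At the other proximal ends 23 of 47 ranked nearer the top in KO and 23 nearer the top in WT. Elsewhere on the same autosomes the counts were 214 and 268 of 496. The median rank on chromosome 9 was 98 in WT and 94 in KO. The difference between these sets was not tested, since regions of 1 library are not replicates and those of 1 cluster share their source. Across the 100 matched proximal regions, scores in WT and KO had a Spearman rho of 0.97, as a description.

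**Figure D5:**
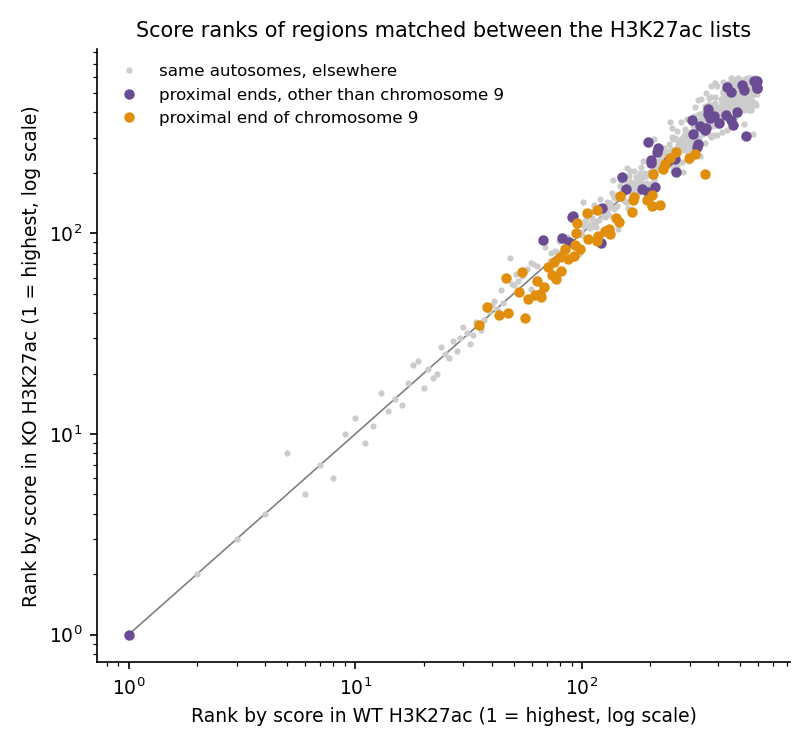
Rank by peak shape score in WT H3K27ac (x axis) and KO H3K27ac (y axis), both on log scales with 1 the highest, among 596 regions matched on the 18 autosomes. The grey line marks equal ranks, and 44 of the 53 chromosome 9 points lie below it, while the other proximal ends fall on both sides.

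The same ranking of WT EGR1 against WT H3K27ac, over 659 matched regions, went the other way on chromosome 9. There 16 of 52 regions ranked nearer the top in EGR1 and 30 nearer the top in WT H3K27ac. The shift was small, with a median rank of 96.8 in WT H3K27ac and 99 in EGR1. At the other proximal ends 30 of 49 ranked nearer the top in EGR1, among them 8 of the 9 on chromosome 10, and 16 nearer the top in WT H3K27ac. Elsewhere on the same autosomes 263 of 558 ranked nearer the top in EGR1 and 264 nearer the top in WT H3K27ac. The differences between these sets were not tested, for the reasons given above. These comparisons share the WT H3K27ac library with the one above. Among the 100 highest scores of each list, 24, 25 and 22 were proximal peaks, of which 21, 24 and 19 lay on chromosome 9.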

How the data were processed

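Peak lists of 3 ChIP-seq samples (WT H3K27ac, KO H3K27ac and WT EGR1, grouped by sample title, 1 library each) were used as deposited. The build is mm10 (submitters' processing notes). The sources used here do not give the aligner, the peak caller or whether input DNA entered the calls. For each peak the authors deposited, per the file headers, a region, centre, length, peak shape score, p-value (0.05 or lower) and neighbouring genes with distances. The lists are per sample, and a score or p-value is the authors' own, used for description and for ranks within 1 list. A peak just above the threshold in 1 list can fall below it in another.

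Proximal peaks, overlaps (at least 1 bp), spacing, clusters (10 kb) and matched peaks (exactly 1 partner in each direction) were computed in Python 3.11.15 with pandas 2.3.3, numpy 2.4.6, scipy 1.17.1 and matplotlib 3.10.9, and tested on simulated data (8 of 8 checks recovered). Positions count from 1 with both ends included. Distances to named genes are the authors'; those in bases are the bases between. RefSeq entries (GRCm38.p6, the assembly behind mm10) with a listed start before 3000000, 285 under these autosomes, were left out. That is before the readable sequence, so these entries are not read as genes at that place. The sequence they refer to is not given here. Wilson intervals (95%) cover counting error only. Regions were named by a fixed rule: the highest WT H3K27ac score per chromosome, single-list peaks with the highest scores, the peaks at the limit, and the largest cluster. Others, among them single peaks of chromosomes 3, 6, 9, 16 and 17 and the shared base, were chosen after their values were seen. The proximal ends and all lists were chosen with earlier results of these data known.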

Additional observations from a re-analysis of the deposited data

How the results depend on the processing

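Of 108 values recomputed under alternatives, 87 stayed within 1.5 times (counts) or within the 95% interval of the value given (shares and medians). Starting windows of 3200000 and 4000000, an overlap of 50% of both regions, a distance of up to 200 bp and, chosen after seeing the data, leaving out chromosome 17 moved none. Without chromosome 9, 51 WT H3K27ac, 60 KO H3K27ac and 49 WT EGR1 proximal peaks remained. Their median scores were then 3.25, 3.0 and 3.24 and their median spacings 1209.5, 1151 and 1268 bp. The share of KO peaks over an EGR1 peak fell to 75%, and that of EGR1 peaks over a WT H3K27ac peak was 100%. With a deposited p of at most 0.01 in both lists, 91.9% of KO peaks overlapped a WT H3K27ac peak, 89.9% of them an EGR1 peak, and 100% of EGR1 peaks a WT H3K27ac peak. Counted as loci merged within 10 kb, these shares were 100%, 95.2% and 100%. Measured as the gap between regions, by construction smaller, spacing had medians of 427, 353 and 370.5 bp. Joining peaks within 1 kb gave 34 KO clusters in place of 21. No paired analysis was possible because each group is 1 library. Depth is unknown, so a peak missing from a list cannot be told from one just under its threshold.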
